A study of Mus musculus with 31 samples.

Results

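The genes described here are 10 transcription factors and precursor markers of the oligodendrocyte lineage, Olig1, Olig2, Sox10, Myrf, Nkx2-2, Nkx6-2, Pdgfra, Cspg4, Gpr17 and Bcas1. They were taken by name from 25497 genes matched in bulk RNA-seq tables of mouse thalamus, and all 10 were among the 14886 genes that passed the filter on low counts. The 31 libraries came from adult offspring, at postnatal day 90, of mothers reared in social isolation (SIR) or of control mothers: 7 SIR males, 8 control males, 8 SIR females and 8 control females. The offspring of both arms had no treatment of their own in the labels, which give neither strain nor litter. Each p-value therefore measures the spread among the sampled animals only, and littermates cannot be told from unrelated ones.

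Oligodendrocytes are the myelin-forming cells of the central nervous system and arise from precursors that keep dividing in the adult brain. The basic helix-loop-helix factors Olig1 and Olig2, the HMG-box factor Sox10 and the homeodomain factors Nkx2-2 and Nkx6-2 act along this lineage, and Myrf, a membrane-bound factor released by self-cleavage, switches on myelin genes. Precursors carry the PDGF receptor Pdgfra and the proteoglycan Cspg4 (NG2), which pericytes also make. Gpr17, a G protein-coupled receptor, marks precursors that have committed to differentiate, and Bcas1 marks newly forming, early myelinating oligodendrocytes.

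Library depth ran from 13004178 to 25741879 estimated counts, with a median of 23281571. The 15 SIR libraries have library numbers from 320 to 432 and the 16 control libraries from 554 to 746, so anything that went with these numbers cannot be told apart from maternal housing. The library labelled SIR female 5 held Ddx3y, a Y-linked gene, at 41.64 CPM (counts scaled to a common library size), against 31.49 to 50.2 CPM in the 15 libraries labelled male and at most 0.04807 CPM in the other 15 libraries labelled female. Values without it are therefore given beside the members' gene-level calls in females, over both sexes and in the interaction. For the calls between the sexes, the range over fits that leave out each library in turn is given. The calls of single transcripts and of list genes, and the ratios in females, are given only with SIR female 5 included. The 8 thalamic neuron genes summed to between 2212 and 4277 CPM in every library, and none of them was at 0 in a whole group. Markers of the choroid plexus and of neurons of neighbouring regions varied more: the 9 choroid plexus genes summed to at most 276 CPM in SIR females and to as much as 1868 CPM in control females.

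Per transcript length the 10 genes covered a wide range of levels. In TPM, the share of a library's transcripts after division by effective length, and over all 31 libraries, Bcas1 averaged 307.5 ± 50.8 TPM, Olig1 162.8 ± 16.97 TPM, Sox10 56.0 ± 7.42 TPM, Myrf 50.6 ± 7.62 TPM and Olig2 40.1 ± 4.53 TPM (SD, n = 31). Below these, Nkx6-2 averaged 28.5 ± 4.75 TPM, Gpr17 24.3 ± 3.77 TPM, Pdgfra 22.9 ± 2.34 TPM, Nkx2-2 13.5 ± 2.70 TPM and Cspg4 7.84 ± 0.909 TPM. Bcas1 stood above Olig1, and Olig1 above Sox10, with no overlap of their ranges. Other neighbours were closer: Sox10 exceeded Myrf in 23 of 31 libraries, Nkx6-2 exceeded Gpr17 in 22 and Gpr17 exceeded Pdgfra in 18, so the order within these pairs does not hold in every library. Even the thinnest of the 10 in reads, Nkx2-2, had 160 to 342 estimated counts in each library.

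**Figure D1:**
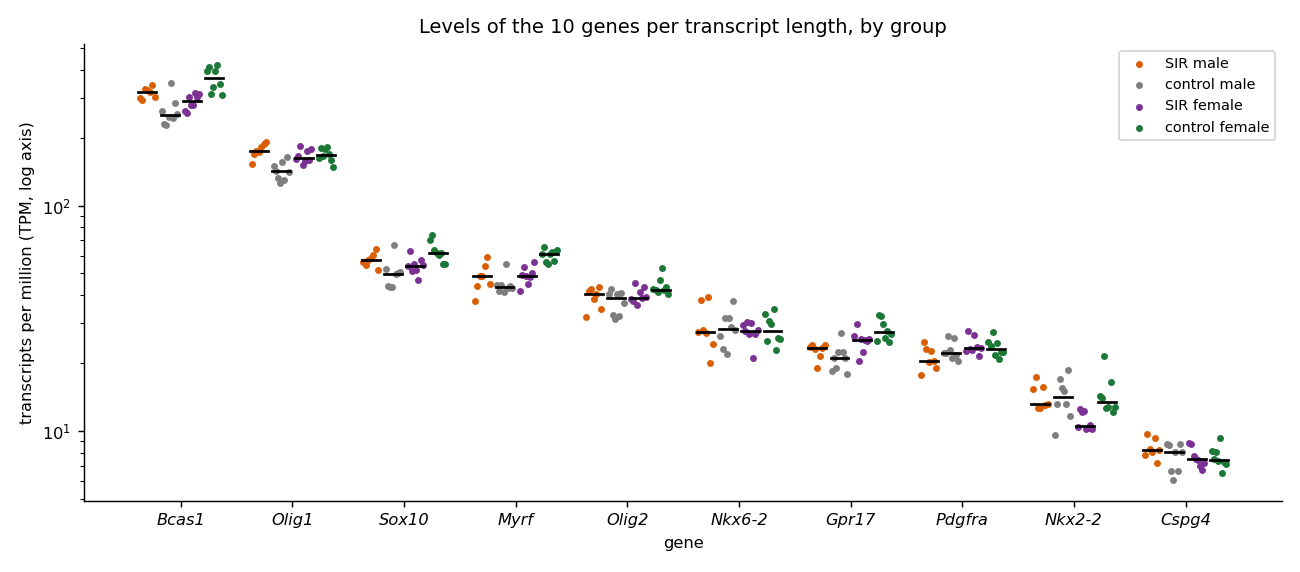
Levels of the 10 genes in TPM (log axis), with each library as a point and the group median as a bar, for SIR males, control males, SIR females and control females. Bcas1 (227.0 to 421.0 TPM) and Olig1 (126.4 to 191.4 TPM) lie apart from the other 8 genes in all 4 groups.

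Most members were counted mainly through a single transcript. Olig1, Olig2 and Gpr17 have 1 transcript each in the tables, and the leading transcript held between 80.2% (Nkx6-2-201) and 92.6% (Sox10-201) of the estimated counts of the other 7 genes. The leading Nkx6-2 transcript is annotated as a target of nonsense-mediated decay, and the other, protein-coding transcript held 19.8%. Olig1, Nkx2-2, Nkx6-2, Pdgfra, Gpr17 and Bcas1 each overlap a gene on the opposite strand in GENCODE M21, which for Nkx6-2 is Inpp5a (mean 154 CPM). The library kit keeps the strand, but the sources used here do not say whether the counting used it, so reads from such overlaps cannot be assigned with certainty.

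For Bcas1 the transcript models differ inside the coding sequence, which bears on what its counts measure. Bcas1-208 has 7 exons and averaged 241 TPM, or 81.2% of the gene's counts. Bcas1-201 has 13 exons, averaged 30.1 TPM and keeps 3 coding exons, exons 9 to 11 with 273 bases in all, that Bcas1-208 skips. The 3 exons are shown because they are coding sequence that the less abundant form keeps, although the forms also differ elsewhere; they lie on the minus strand at GRCm38 chr2:170370450-170370491, chr2:170366364-170366528 and chr2:170356248-170356313 and read, 5′ to 3′ in the GENCODE M21 transcript:
Bcas1 exon 9: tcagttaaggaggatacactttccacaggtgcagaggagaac
Bcas1 exon 10: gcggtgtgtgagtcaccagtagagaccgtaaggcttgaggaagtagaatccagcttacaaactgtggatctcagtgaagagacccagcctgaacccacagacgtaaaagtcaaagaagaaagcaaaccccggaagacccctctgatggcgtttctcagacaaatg
Bcas1 exon 11: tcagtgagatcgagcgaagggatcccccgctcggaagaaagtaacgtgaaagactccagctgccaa

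In males, Olig1 rose and no other member passed the test by edgeR, although 9 of the 10 members had positive estimates. Olig1 had 192.8, 209.4 and 246.5 CPM as the lowest, median and highest of 7 SIR males, against 145.3, 172.9 and 198.9 CPM in 8 control males. The groups overlapped only between 192.8 and 198.9 CPM, and all 7 SIR males lay above the control median. The difference was 0.32 ± 0.065 on the log2 scale (SE), with an adjusted p of 0.0149 by edgeR's quasi-likelihood test with Benjamini-Hochberg adjustment over 14886 genes. This is 1 of 10 members called higher in males, where 0.282% of all tested genes were. The median estimate of the 10 members was 0.119, against -0.001 over all tested genes.

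The neighbouring factor Olig2, which lies on chromosome 16 like Olig1, did not pass in males. It had 45.95, 53.82 and 59.75 CPM in SIR males, against 40.68, 52.69 and 58.89 CPM in control males. These groups overlapped over most of their range, and the difference was 0.10 ± 0.075 (95% interval -0.06 to 0.25, edgeR adjusted p = 0.547).

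Sox10 and Bcas1 came closest to the threshold in males. Sox10 had 81.45, 92.41 and 105.0 CPM in SIR males, against 65.87, 76.97 and 103.6 CPM in control males, a difference of 0.24 ± 0.072 (edgeR adjusted p = 0.0702). Bcas1 had 279.2, 320.5 and 351.2 CPM in SIR males, against 224.8, 256.8 and 341.6 CPM in control males, a difference of 0.29 ± 0.082 (edgeR adjusted p = 0.0604). For both genes all 7 SIR males lay above the control median, and the highest control value came from control male 23. That library is the second shallowest of the 31, and without it both genes passed: 0.31 ± 0.062 for Sox10 (edgeR adjusted p = 0.0132) and 0.35 ± 0.075 for Bcas1 (edgeR adjusted p = 0.0143). Both also passed with all libraries by DESeq2 (adjusted p = 0.0254 for Sox10 and 0.0174 for Bcas1) and limma-voom (0.0376 and 0.0221). Over all tested genes, in either direction, DESeq2 called 626 in males and limma-voom 629, against 198 by edgeR. Over 16 ways of processing the adjusted p ran from 0.0124 to 0.491 for Sox10, which passed in 3, and from 0.0124 to 0.57 for Bcas1, which passed in 5.

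The other 6 members had small estimates in males and did not pass. Myrf differed by 0.16 ± 0.069 and Gpr17 by 0.14 ± 0.079. Nkx2-2 and Nkx6-2 each differed by 0.06 ± 0.095, and Cspg4 by 0.10 ± 0.062. Pdgfra was the only negative estimate, -0.08 ± 0.046, with 57.3, 62.26 and 68.26 CPM in SIR males and 63.14, 65.63 and 70.54 CPM in control males. The 95% interval for Pdgfra ran from -0.17 to 0.02, so a fall of the receptor gene by more than 0.17 lies outside it.

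The Olig1 call in males was near the threshold. The adjusted p ran from 0.00087 to 0.131 over 16 other ways of processing and passed in 12; it was 0.0931 with a length trend removed (difference 0.32), 0.102 with a GC trend removed (0.26), 0.131 with a mature oligodendrocyte score in the model (0.18) and 0.0523 with males fitted alone (0.32). Over all tested genes these called 0, 6, 2 and 76 in males, against 198 in the reported fit. It was also lost without SIR male 15 (0.0509) or control male 22 (0.0516), which hold the highest SIR value and the lowest control value, by edgeR in each case.

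**Figure D2:**
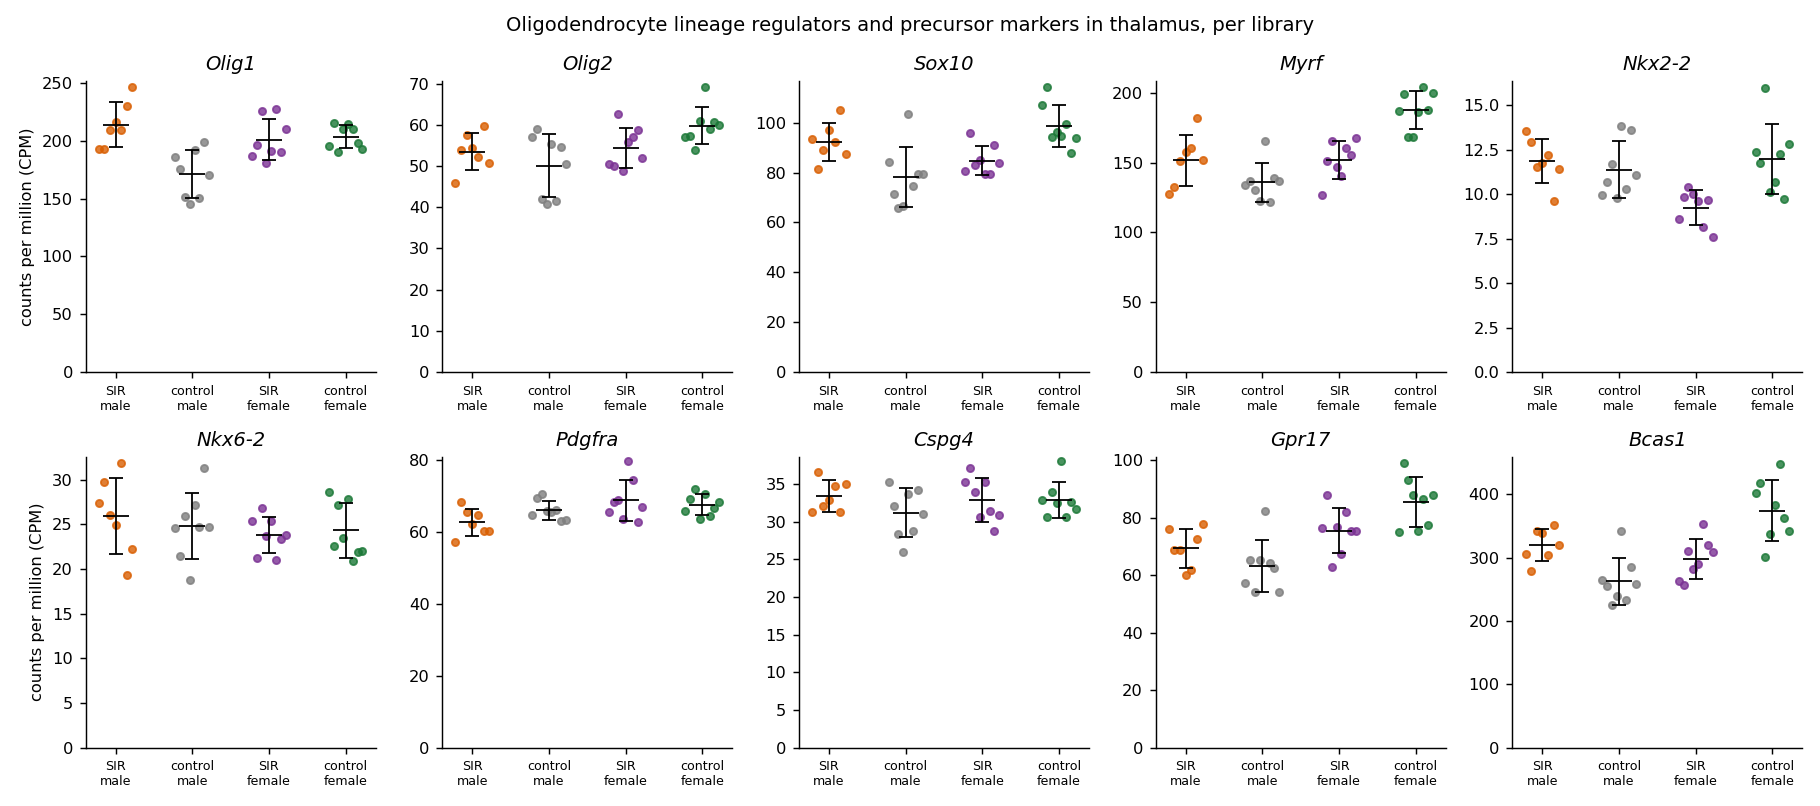
CPM of each of the 10 genes in every library (points), with group mean and SD (bars), for SIR males, control males, SIR females and control females on axes that start at 0. Olig1 is higher in SIR than control males (means 213.9 and 171.2 CPM), whereas Myrf is lower in SIR than control females (means 151.7 and 187.6 CPM).

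In females, Myrf, Bcas1 and Nkx2-2 fell by edgeR, and no member rose. Myrf had 126.7, 153.1 and 167.8 CPM in 8 SIR females, against 168.4, 187.2 and 204.3 CPM in 8 control females. The groups did not overlap, as held for 0.222% of all tested genes in this direction. The difference was -0.31 ± 0.066 (edgeR adjusted p = 0.00746). Of the 10 members 3 were called lower, where 2.24% of all tested genes were, and the median estimate of the members was -0.157, against -0.011 over all tested genes.

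Bcas1 had 257.1, 299.0 and 353.1 CPM in SIR females, against 301.5, 372.9 and 447.8 CPM in control females, a difference of -0.33 ± 0.079 (edgeR adjusted p = 0.0150). The groups overlapped between 301.5 and 353.1 CPM, and all 8 SIR females lay below the control median. Nkx2-2 had 7.582, 9.649 and 10.42 CPM in SIR females, against 9.702, 11.99 and 15.94 CPM in control females, a difference of -0.37 ± 0.093 (edgeR adjusted p = 0.0195). All 8 SIR females lay below the control median here too, and the highest SIR values overlapped the lowest control values.

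Sox10 and Gpr17 had negative estimates in females that did not pass. Sox10 had 79.4, 83.35 and 95.94 CPM in SIR females, against 87.96, 95.39 and 114.3 CPM in control females, a difference of -0.22 ± 0.070 (edgeR adjusted p = 0.0649). Gpr17 had 62.81, 75.99 and 87.9 CPM in SIR females, against 75.2, 87.35 and 99.04 CPM in control females, a difference of -0.18 ± 0.076 (edgeR adjusted p = 0.177). In each case 7 of 8 SIR females lay below the control median. Sox10 passed in 6 of 16 other ways of processing, with adjusted p from 0.0145 to 0.787.

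Olig1, the gene that rose in males, did not pass in females. It had 180.9, 193.5 and 227.0 CPM in SIR females, against 190.6, 204.0 and 215.6 CPM in control females, with a difference of -0.02 ± 0.063 and a 95% interval from -0.15 to 0.11. Olig2 differed by -0.14 ± 0.073 and Nkx6-2 by -0.03 ± 0.092, and neither passed. The precursor receptors had estimates near 0: Pdgfra differed by 0.03 ± 0.044 (95% interval -0.06 to 0.12) and Cspg4 by 0.00 ± 0.060 (95% interval -0.12 to 0.12).

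The calls in females did not rest on the library labelled SIR female 5, without which they were -0.33 ± 0.069 for Myrf, -0.34 ± 0.083 for Bcas1 and -0.40 ± 0.096 for Nkx2-2 (edgeR adjusted p = 0.00801, 0.02 and 0.0180). Leaving out the 8 libraries numbered 320 to 323 or 738 to 746 ended all 3 calls (-0.22 for Myrf, -0.25 for Bcas1 and -0.40 for Nkx2-2; edgeR adjusted p = 0.241, 0.312 and 0.137, against ranges over 16 ways of processing of 0.000987 to 0.398, 0.00169 to 0.554 and 0.00736 to 0.137). All 3 were lost too with the mature oligodendrocyte score in the model (-0.09 for Myrf, -0.08 for Bcas1 and -0.35 for Nkx2-2; edgeR adjusted p = 0.398, 0.554 and 0.132), and Nkx2-2 with limma-trend (0.0849). In whole tissue, fewer cells of a type and less RNA per cell cannot be told apart.

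The sequence just before the Nkx2-2 start is shown because this gene fell in females, and that of Pdgfra because it did not; the table of promoters held 5 of the 10 members. The 250 bases before each start are written 5′ to 3′ on the gene's strand from RefSeq (GRCm38.p6), for Nkx2-2 at chr2:147186403-147186652 (minus) and for Pdgfra at chr5:75152001-75152250 (plus), with the E-box motif CANNTG, bound by basic helix-loop-helix factors such as Olig1 and Olig2, in capitals. CANNTG reads the same on both strands, and no matches overlap:
Nkx2-2: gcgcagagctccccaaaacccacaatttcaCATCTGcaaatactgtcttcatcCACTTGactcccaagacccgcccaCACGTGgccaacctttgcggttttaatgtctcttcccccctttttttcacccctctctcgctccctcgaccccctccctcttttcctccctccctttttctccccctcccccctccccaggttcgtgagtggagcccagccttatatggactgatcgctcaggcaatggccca
Pdgfra: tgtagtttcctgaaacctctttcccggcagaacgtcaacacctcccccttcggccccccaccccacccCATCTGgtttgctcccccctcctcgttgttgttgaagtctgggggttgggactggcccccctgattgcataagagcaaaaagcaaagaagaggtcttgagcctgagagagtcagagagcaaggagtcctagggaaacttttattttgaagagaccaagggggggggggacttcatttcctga
The Nkx2-2 stretch holds 3 E-boxes and those of Pdgfra and Nkx6-2 hold 1 each, while those of Olig2 and Cspg4 hold 0. Of all 32851 promoter stretches of this length 66.2% hold at least 1. The share that hold 3 or more was not counted, so whether 3 is unusual is not known. No promoter sequence was at hand for Myrf and Bcas1, which also fell in females. The SOX motif ACAAAG, searched on both strands, was in 0 of the 5 and is in 16.5% of all. A match is a run of letters and does not show binding.

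The interaction asks whether the housing difference itself differed between the sexes, as the male difference minus the female difference. It passed for 4 of 10 members, Bcas1, Myrf, Sox10 and Olig1, all with a higher SIR-minus-control difference in males, where 1.08% of all tested genes were called in this direction. The interaction was 0.61 ± 0.11 for Bcas1 (edgeR adjusted p = 0.00212), 0.47 ± 0.096 for Myrf (0.00530), 0.46 ± 0.10 for Sox10 (0.00878) and 0.34 ± 0.090 for Olig1 (0.0315). For Bcas1, Myrf and Sox10 the estimates had opposite signs in the sexes, and for Olig1 the female estimate was near 0. The median interaction of the 10 members was 0.328, against 0.004 over all tested genes.

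**Figure D3:**
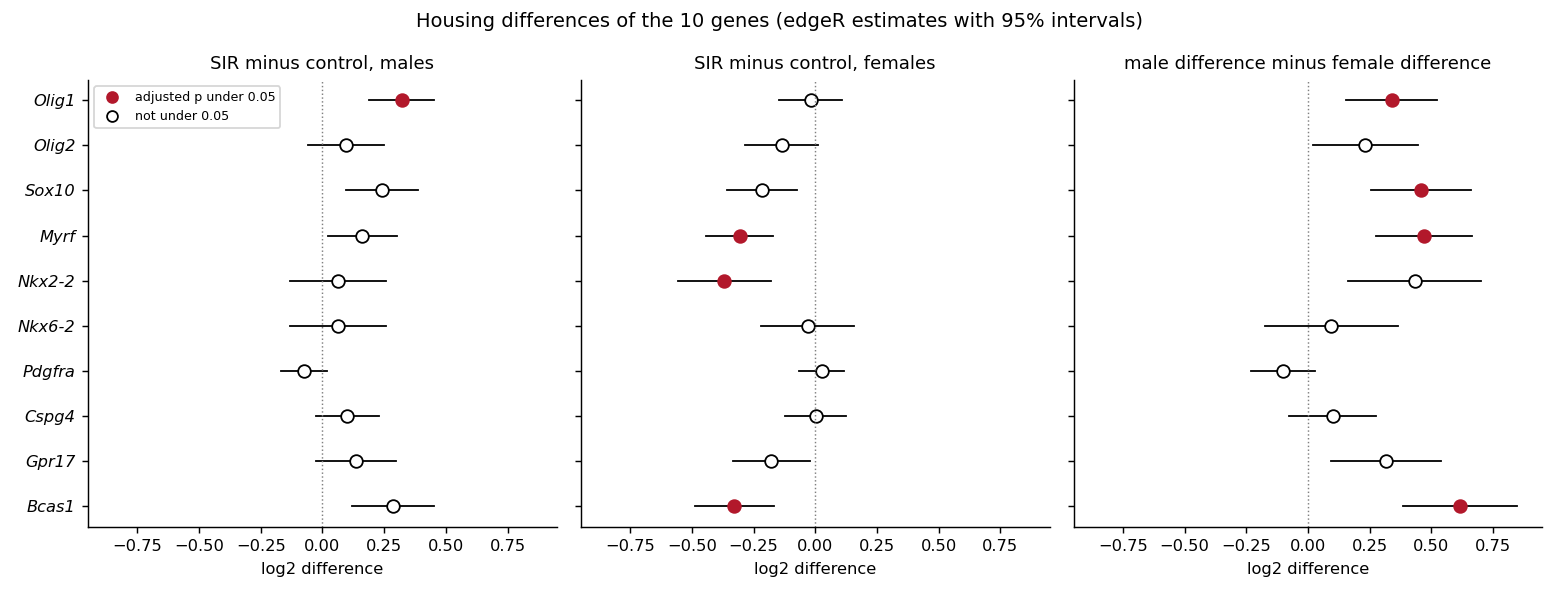
Log2 differences of the 10 genes with 95% intervals, for SIR minus control in males, SIR minus control in females, and the male difference minus the female difference; filled points have an adjusted p under 0.05. Olig1 is filled in males, Myrf, Nkx2-2 and Bcas1 in females, and Olig1, Sox10, Myrf and Bcas1 in the interaction.

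The other 6 members did not pass the interaction test. Nkx2-2 had an interaction of 0.43 ± 0.13 (edgeR adjusted p = 0.0706), so by edgeR its fall in females was not shown to differ from the male estimate. It passed with DESeq2 (adjusted p = 0.0455), limma-voom (0.0337), 2 surrogate variables (0.0159) and without the 2 shallowest libraries (0.0453), over a range of 0.0159 to 0.379 in 15 ways of processing, and in 5 of 31 fits with 1 library left out. Over all tested genes DESeq2 called 619, limma-voom 713, 2 surrogate variables 1395 and the fit without the 2 shallowest libraries 524, against 422. Gpr17 had 0.32 ± 0.11 (edgeR adjusted p = 0.123) and Olig2 0.23 ± 0.10 (edgeR adjusted p = 0.274). Cspg4, Nkx6-2 and Pdgfra had 0.10 ± 0.086, 0.09 ± 0.13 and -0.10 ± 0.063, and their 95% intervals all included 0.

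The calls of Bcas1, Myrf and Sox10 in the interaction held in 14 of 15 other ways of processing, and with each of the 31 libraries left out. Without the library labelled SIR female 5 the interaction was 0.62 ± 0.12 for Bcas1, 0.49 ± 0.097 for Myrf, 0.45 ± 0.10 for Sox10 and 0.36 ± 0.090 for Olig1 (edgeR adjusted p = 0.00273, 0.00410, 0.0108 and 0.0188). Olig1 was less firm: its adjusted p ran from 0.00323 to 0.909 over the 15 ways of processing and to 0.0589 over the 31 fits with 1 library left out, 23 of which passed. It was lost without SIR male 15, SIR female 7 or 9, control male 21, 22 or 25, or control female 18 or 26.

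The way of processing that ended all 4 calls was the model with a mature oligodendrocyte score, the mean log2 level of 21 genes of mature, myelinating cells. With this score in the model the interaction was 0.16 for Bcas1, 0.06 for Myrf, 0.15 for Sox10 and 0.04 for Olig1 (edgeR adjusted p = 0.557, 0.817, 0.629 and 0.909). This model called 0 of the 14886 genes in the interaction, against 422 without the score. The score is measured in the same libraries, and many of its genes were called in the same comparisons.

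**Figure D4:**
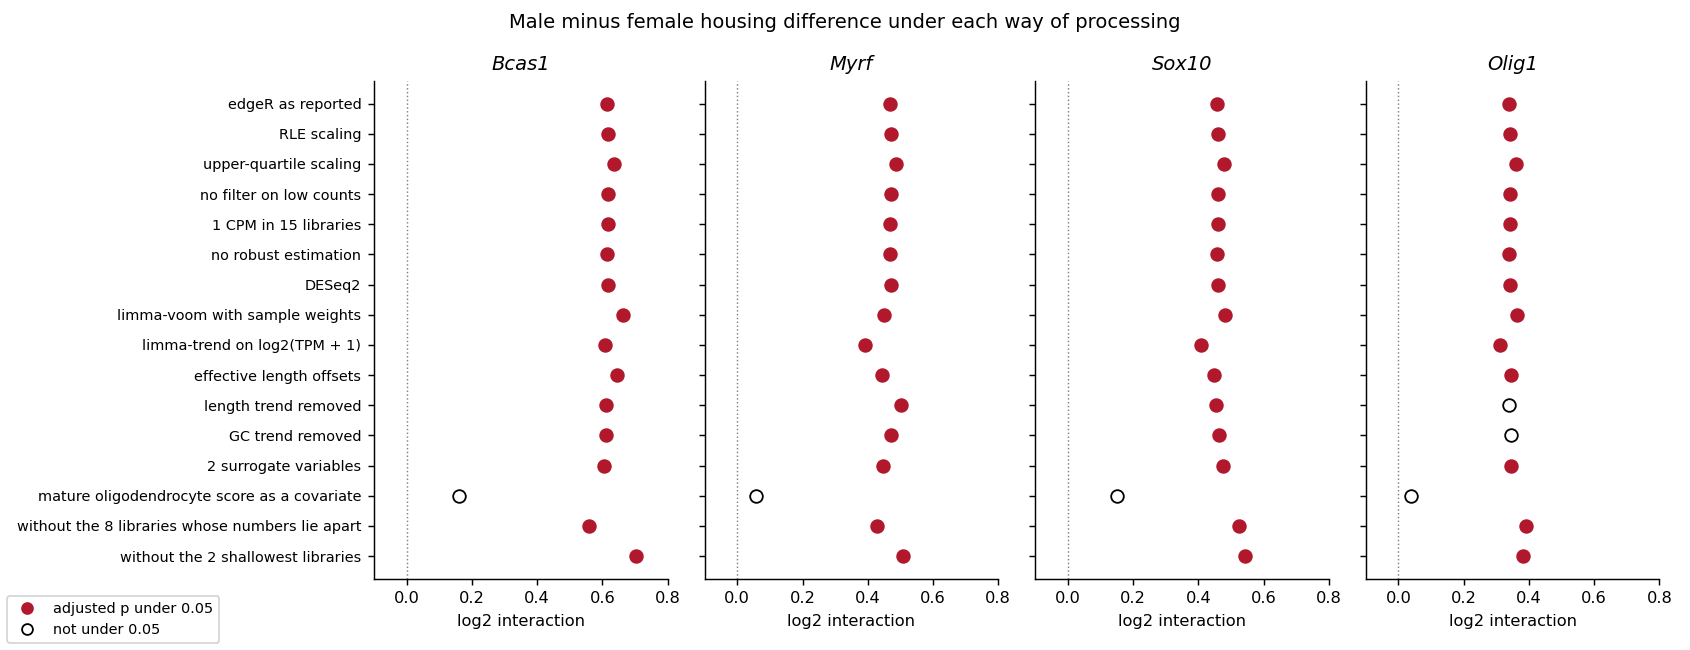
Log2 interaction (male minus female housing difference) of Bcas1, Myrf, Sox10 and Olig1 under the reported edgeR fit and 15 other ways of processing; filled points have an adjusted p under 0.05. Bcas1 stays between 0.56 and 0.70 except with the mature oligodendrocyte score as a covariate, where it is 0.16.

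Over both sexes together Olig1 was the only member called, at 0.15 ± 0.045 (edgeR adjusted p = 0.0474), where 1.76% of all tested genes were called higher. It passed in 9 of 16 other ways of processing (0.0138 to 0.408), and without the library labelled SIR female 5 its adjusted p was 0.0816. With 1 library left out it passed in 14 of 31 fits. The median estimate of the 10 members over both sexes was -0.02.

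Averaged over both housing groups, Gpr17, Myrf and Bcas1 were lower in males than in females. The male-minus-female difference was -0.28 ± 0.055 for Gpr17, -0.23 ± 0.048 for Myrf and -0.20 ± 0.057 for Bcas1 (edgeR adjusted p = 0.00203, 0.00291 and 0.0213). These are 3 of 10 members called lower in males, where 5.65% of all tested genes were. The library labelled SIR female 5, with Ddx3y at a male level, was counted as female here and in the medians and means below. All 3 calls held in each of 31 fits with 1 library left out, among them the fit without SIR female 5. Over these fits the edgeR adjusted p ran from 0.00021 to 0.00451 for Gpr17, 0.000615 to 0.00675 for Myrf and 0.00464 to 0.0393 for Bcas1. For Myrf 14 of 15 males lay below the female median, for Gpr17 13 and for Bcas1 11. The group means of Gpr17 were 69.4 CPM in SIR males and 75.5 CPM in SIR females, and 63.2 CPM in control males and 85.5 CPM in control females. Those of Myrf were 151.8 CPM in SIR males and 151.7 CPM in SIR females, and 135.8 CPM in control males and 187.6 CPM in control females. Bcas1 averaged 320.2 CPM in SIR males and 297.9 CPM in SIR females, and 262.7 CPM in control males and 374.1 CPM in control females. By these means Myrf and Bcas1 were lower in males only in the control groups, and a difference between the sexes within 1 housing group was not tested.

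At the level of transcripts, fitted over 41273 transcripts, 3 tests of members passed among the housing comparisons and the interaction. Myrf-201, with 87.5% of the gene's counts, averaged 39.3 ± 3.17 TPM in SIR females and 48.1 ± 2.41 TPM in control females (SD, n = 8 each), and fell by 0.30 on the log2 scale with an SE of 0.064 (edgeR adjusted p = 0.0363). In females 0.274% of all tested transcripts were called. Its interaction was 0.51 ± 0.093 (edgeR adjusted p = 0.0124), and that of Bcas1-208 was 0.64 ± 0.12 (edgeR adjusted p = 0.0196), where 0.170% of all tested transcripts were called. Bcas1-201, the form with the 3 exons printed above, had an interaction of 0.52 ± 0.14 that did not pass (edgeR adjusted p = 0.157). A difference between these forms was not tested.

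The mature oligodendrocyte genes moved beside the members. In males 2 of 21 were called higher by edgeR (10 by DESeq2 and 9 by limma-voom) and all 21 estimates were positive, with a median of 0.226; in females 10 of 21 were called lower, 20 were negative and the median was -0.261. The interaction was called for 16 of 21, with a median of 0.408. The 21 genes summed to a median of 11530 CPM in SIR males and 9697 CPM in control males, and of 11050 CPM in SIR females and 13950 CPM in control females. Mbp, myelin basic protein, averaged 4759 ± 411 CPM in SIR males and 3917 ± 502 CPM in control males, and 4325 ± 426 CPM in SIR females and 5275 ± 422 CPM in control females (SD, n = 7, 8, 8 and 8). Its interaction was 0.57 ± 0.10, beside 0.61 for Tmem98, a membrane protein that binds Myrf, 0.54 for Trf, transferrin, and 0.40 for Cnp, a myelin enzyme (edgeR adjusted p = 0.00134, 0.00153, 0.00233 and 0.00466).

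Lists of earlier stages showed few calls by edgeR after adjustment. Of 14 other precursor markers 0 were called in males by edgeR, DESeq2 or limma-voom (1 had an unadjusted edgeR p under 0.05), with a median of -0.047. In females 4 had an unadjusted edgeR p under 0.05 and edgeR called 1, with a median of -0.017. That gene, Cacng4, a subunit that regulates glutamate receptors, averaged 118.3 ± 4.54 CPM in SIR females and 97.7 ± 5.23 CPM in control females (SD, n = 8 each), a difference of 0.28 ± 0.049 (edgeR adjusted p = 0.00162), with an interaction of -0.26 ± 0.071 (edgeR adjusted p = 0.0379). Of 12 measured genes of committed precursors and newly formed oligodendrocytes edgeR called 0 in either sex, with medians of 0.037 in males and -0.011 in females; unadjusted, 1 was under 0.05 in males and 0 in females, and DESeq2 called 1 in males. Of 5 proliferation genes 3 were tested, and 0 were under 0.05 in either sex even unadjusted, by edgeR, nor called by DESeq2 or limma-voom. All 3 estimates were positive in both sexes, with medians of 0.312 in males and 0.237 in females. The 5 genes together had group means of only 1.801 to 2.412 CPM. At this level, close to the limit of what was counted, the tests cannot show that proliferation genes did not differ.

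Of 23 other transcription factors of the lineage edgeR called 0 in males, where 2 were under 0.05 unadjusted, DESeq2 called 1 and limma-voom 0. In females 8 were under 0.05 unadjusted, edgeR called 1 higher and 3 lower, DESeq2 called 5 and limma-voom 4. Id4, an inhibitor of basic helix-loop-helix factors that holds precursors back from differentiation, averaged 115.2 ± 18.9 CPM in SIR females and 76.4 ± 8.40 CPM in control females (SD, n = 8 each), a difference of 0.59 ± 0.10 (edgeR adjusted p = 0.00170). Its male estimate was -0.23 ± 0.11 and its interaction -0.82 ± 0.15 (edgeR adjusted p = 0.00224). The zinc finger factor St18 and the chromatin remodeller Chd7 fell in females, by 0.32 ± 0.085 and 0.23 ± 0.064 (edgeR adjusted p = 0.0248 and 0.0300). Nkx6-1 also fell, but at a mean of 0.270 CPM in SIR females and 0.759 CPM in control females it is close to the limit of what was counted.

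Of 22 ligands, receptors and other signals to the lineage edgeR called 1 in males and 3 in females. In males 7 were under 0.05 unadjusted by edgeR, DESeq2 called 1 and limma-voom 4. In females 4 were under 0.05 unadjusted, DESeq2 called 3 and limma-voom 2. Ptch1, the receptor for hedgehog ligands, averaged 156.6 ± 10.9 CPM in SIR males and 185.1 ± 11.5 CPM in control males (SD, n = 7 and 8), a difference of -0.24 ± 0.058 (edgeR adjusted p = 0.0317), with an interaction of -0.33 ± 0.081. In females Tnfrsf21, a death receptor, fell by 0.18, Gpr37, a receptor that restrains differentiation, by 0.23 and Igf1, a growth factor for the lineage, by 0.48 (edgeR adjusted p = 0.0292, 0.0460 and 0.0477). Gpr37 also had an interaction of 0.43 ± 0.10 (edgeR adjusted p = 0.0132).

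Markers of other cells were read because Cspg4 and Pdgfra are also made outside the lineage and because dissections can differ. Of 12 mural cell genes 2, Acta2 and Tagln, were called lower in females; 11 of the 12 estimates were positive in males, with a median of 0.201, and 6 in females, with a median of -0.007. In males 6 mural cell genes were under 0.05 unadjusted by edgeR, which called 0, while DESeq2 called 2 and limma-voom 0. In females 3 were under 0.05 unadjusted. The list summed to 332.5 to 406.5 CPM in SIR males, 285.1 to 371.4 CPM in control males, 289.1 to 373.8 CPM in SIR females and 305.4 to 365.0 CPM in control females. Of 9 leptomeningeal fibroblast genes 2, Col3a1 and Islr, were called lower in females, with a list median of -0.324 there and 0.297 in males; the list summed to 77.8 to 122.5 CPM in SIR males, 70.5 to 96.6 CPM in control males, 81.4 to 112.8 CPM in SIR females and 79.4 to 224.6 CPM in control females. Of these 9 genes 4 were under 0.05 unadjusted by edgeR in each sex, and in males edgeR, DESeq2 and limma-voom called 0. Of 8 thalamic neuron genes 3, Necab1, Calb2 and Gbx2, were called higher in females and 1, Necab1, lower in males, and all 3 had negative interactions, from -1.63 to -0.89. The median of the 8 was -0.144 in males, where 2 estimates were positive, and -0.01 in females, where 4 were. These 8 genes summed to 2482 to 4277 CPM in SIR males, 2883 to 4179 CPM in control males, 2765 to 3537 CPM in SIR females and 2212 to 3869 CPM in control females. None of these lists had a gene at 0 in a whole group, and their part in the members' differences was not tested.

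Genes of structures beside the thalamus differed between the female groups too. Of 9 choroid plexus genes 2, Slc4a5 and Prlr, were called lower in females, with all 9 estimates negative and a median of -1.99; they summed to 28.7 to 276 CPM in SIR females and 28.3 to 1868 CPM in control females. Of 10 genes of neighbouring regions' neurons, which summed to 75.5 to 391.3 CPM in SIR females and 32.1 to 376 CPM in control females, Slc6a3 and Pax7 were called lower and Gpr151 higher in females. Slc6a3, the dopamine transporter, had 0.302 CPM as the median of SIR females and 1.004 CPM as that of control females, with 43.12 CPM in 1 control female. In females 1 of 11 astrocyte genes, Slc1a3, and 1 of 10 neuron genes, Tubb3, were called higher; of 10 microglia and 10 endothelial genes edgeR called 0 in either sex. In males 2 microglia and 3 endothelial genes were under 0.05 unadjusted, and DESeq2 called 0 and 1 and limma-voom 0 and 2 of them; in females 1 and 0 were under 0.05 unadjusted. The part of these markers in the members' differences was not tested.

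Across the 31 libraries, with group means removed, 5 of the 10 members varied with the mature oligodendrocyte genes. The mature oligodendrocyte score had a Pearson r of 0.82 with Myrf, 0.78 with Bcas1, 0.67 with Olig2, 0.67 with Olig1 and 0.59 with Sox10 (Spearman rho 0.81, 0.81, 0.66, 0.64 and 0.53; permutation p adjusted over 105 relations for r 0.00035, 0.00035, 0.0030, 0.0034 and 0.017). Without the 2 libraries farthest from the median score r was 0.80, 0.81, 0.63, 0.61 and 0.56. The other 5 members had r between -0.06 and 0.10 with the score, and none passed.

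Among the 45 pairs of members 10 passed by r, all positive. The closest were Myrf with Bcas1 (r = 0.73, rho = 0.72, adjusted permutation p = 0.00035), Olig1 with Olig2 (r = 0.70, rho = 0.67, adjusted permutation p = 0.0034) and Olig1 with Bcas1 (r = 0.67, rho = 0.70, adjusted permutation p = 0.00052). Without the 2 libraries farthest from the median these were 0.65, 0.61 and 0.65. Nkx2-2 and Nkx6-2 passed with each other at r = 0.55 but with none of the 5 genes above. Cspg4 passed with Nkx6-2 alone (r = 0.49), and Pdgfra and Gpr17 passed with no other member. Olig2 with Myrf, Sox10 with Myrf and Nkx6-2 with Cspg4 did not pass by rho (adjusted permutation p = 0.064, 0.095 and 0.074). Without the 2 libraries farthest from the median the r of these pairs was 0.464, 0.335 and 0.349. All of these measures share each library's depth and RNA composition.

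**Figure D5:**
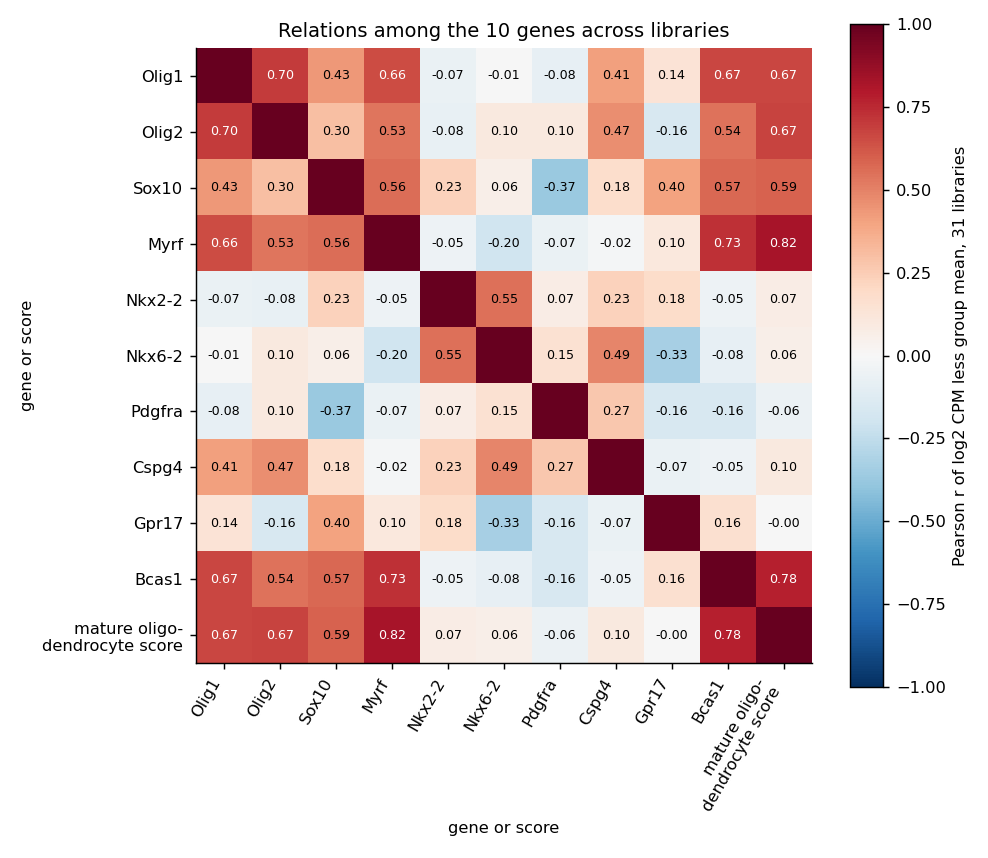
Pearson r between the 10 genes, and between each gene and the mature oligodendrocyte score, over 31 libraries with group means removed from log2 CPM. Olig1, Olig2, Sox10, Myrf and Bcas1 correlate with the score (0.59 to 0.82), and Nkx2-2, Nkx6-2, Pdgfra, Cspg4 and Gpr17 do not pass (-0.06 to 0.10).

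The genes outside the list whose log2 CPM followed each member most closely, among 13544 genes with a mean of at least 1 CPM, fell along the same lines. Myrf was closest to Slc44a1 (r = 0.91, rho = 0.92) and Trf (r = 0.90, rho = 0.88), and Bcas1 to Mobp (r = 0.84, rho = 0.85), a myelin protein gene, and Adamts4 (r = 0.84, rho = 0.81). Sox10 was closest to Slain1 (r = 0.81, rho = 0.65) and Adamts4 (r = 0.76, rho = 0.66), and Olig2 to Ldlrad3 (r = 0.78, rho = 0.71) and Cdh20 (r = 0.75, rho = 0.73). Olig1 differed from these: its closest genes were Pecam1, an endothelial adhesion molecule (r = 0.82, rho = 0.82), and Apln, a secreted peptide gene (r = 0.82, rho = 0.81).

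For Nkx2-2, Cspg4, Gpr17 and Pdgfra the highest r was lower, although for Nkx2-2 it was close to that of Olig2. By rho the nearest genes of Nkx2-2 followed it more closely than those of Sox10 (0.65 and 0.66). Nkx2-2 was closest to 2210016F16Rik and Spata13 (r = 0.77 and 0.73, rho = 0.72 and 0.73). Cspg4 was closest to Arhgef19 and Fam171a2 (r = 0.73 and 0.71, rho = 0.72 and 0.66). The nearest genes of Gpr17 were Bfsp2 and Pcdhga11 (r = 0.70 and 0.58, rho = 0.645 and 0.447). Those of Pdgfra were Nt5dc2 and Btg3 (r = 0.64 and 0.63, rho = 0.668 and 0.548). These values are the highest of many and describe these 31 libraries.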

How the data were processed

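PolyA RNA of thalamus was sequenced after stranded mRNA library preparation, per the labels' protocols. The authors deposited 1 kallisto table per library with the estimated count, the effective length and the TPM of 105878 transcripts, per the file headers; FastQC, kallisto and the build GRCm39 are named in the submitters' processing notes, without versions. Transcripts were matched by ID to GENCODE M21 (104949, or 99.12%; 25497 genes); the unmatched held 0.69% to 0.76% of counts. Each gene's estimated counts were added up and rounded. edgeR 4.0.16 in R 4.3.3 (TMM scaling, filterByExpr, 4 group means, robust quasi-likelihood test) gave 5 contrasts, adjusted by Benjamini-Hochberg over 14886 genes with a threshold of 0.05; CPM values are TMM-scaled. DESeq2 1.42.0 and limma 3.58.1 served as alternatives. Relations used 100000 permutations within groups, two-sided. The fit was also run on simulated independent counts, with the same spread for every gene and changes placed in SIR males only. Those changes were larger than most reported here, and libraries did not vary together. That run is therefore no check of the calls in these data.

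The 10 members and the gene lists were chosen with earlier results of these data known. Named besides the members are, per member, the 2 genes with the highest r (those of Nkx6-2 are not reported here) and, per list, up to 4 genes passing in a housing comparison or the interaction, by smallest p. Alternatives were 16 other ways of processing and leaving out each of 31 libraries.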

Additional observations from a re-analysis of the deposited data

Results flagged for a closer look

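The housing difference differed between the sexes, by the edgeR interaction test, for 4 members and for 15 of the list genes named above. Those list genes had been named because they passed a housing comparison or the interaction, with at most 4 per list. Their number is therefore fixed in part by that choice and is not a share of the lists. Over all 14886 tested genes the interaction was called higher for 161 and lower for 261. The male less female difference was 0.34 for Olig1, 0.46 for Sox10, 0.47 for Myrf and 0.61 for Bcas1. Among the lists it was -0.82 for Id4, -0.26 for Cacng4, 0.43 for Gpr37, -0.33 for Ptch1, 0.57 for Mbp, 0.61 for Tmem98, 0.54 for Trf and 0.40 for Cnp. Among markers of other cells it was 0.95 for Acta2, 0.85 for Tagln, 1.13 for Col3a1, 1.13 for Islr, -1.63 for Necab1, -0.89 for Calb2 and -0.95 for Gbx2.

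A single library lay far from the rest of its group in 4 of 40 checks of a member within a group. Chance gives about 1 in 20 for independent checks. These checks share libraries, and all 4 came from control male 23 and control female 26, so no excess over chance is shown. Control male 23 had 166 CPM of Myrf, against 122 to 139 CPM in the other control males, and 82.4 CPM of Gpr17, against 54.1 to 65.2 CPM. Control female 26 had 69.2 CPM of Olig2, against 53.9 to 61.0 CPM in the other control females, and 38.0 CPM of Cspg4, against 30.6 to 33.9 CPM. Control male 23 is also the second shallowest library; without it Gpr17 passed the interaction at 0.38 ± 0.099 (edgeR adjusted p = 0.0245).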

How the results depend on the processing

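Main counts of members called were 1 in males, 3 in females, 1 over both sexes, 4 in the interaction and 3 between the sexes. In males the count was 2 with upper-quartile scaling or 2 surrogate variables (204 and 613 genes called in all, against 198). It was 3 with DESeq2, limma-voom or without the 2 shallowest libraries, chosen after seeing the data (626, 629 and 379 in all). It was 0 with a length or GC trend removed, with the mature oligodendrocyte score, or with males alone (0, 6, 2 and 76 in all). In females it was 0 with that score or without the 8 libraries whose numbers lie apart (80 and 45 genes in all, against 688), and Nkx2-2 was lost with limma-trend. Over both sexes it was 0 with no filter, with limma-trend on log2(TPM + 1), with the length or GC trend removed, with 2 surrogate variables, with an additive model and without those 8 libraries; with the length trend removed and without the 8 libraries 0 of all genes were called, which says nothing particular to the members. In the interaction it was 0 with the score and 3 with the length or GC trend removed (0, 393 and 445 genes in all, against 422). It was 5 with DESeq2, limma-voom or 2 surrogate variables and 6 without the 2 shallowest libraries (619, 713, 1395 and 524 in all). Between the sexes it was 6 with limma-voom and 0 with the score (2963 and 168 genes in all, against 1502). By edgeR Bcas1 was lost there with effective length offsets (adjusted p = 0.0684), the GC trend removed (0.0626) and 2 surrogate variables (0.062). It was also lost with the score (edgeR adjusted p = 0.985) and without the 8 libraries (0.0578). Leaving out 1 library gave 0 to 3 in males and 0 to 1 over both sexes, where Olig1 was lost without SIR male 6, 8, 13 or 15, SIR female 3, 5, 10 or 12, control male 19, 21, 22, 25 or 28, or control female 17, 29, 30 or 31. Estimates that changed sign with the score were 0.14 for Olig1 in females, -0.067, 0.058 and -0.13 for Olig2 in males, females and the interaction, -0.031 for Myrf in males and 0.0029 for Bcas1 between the sexes. With the GC trend removed Nkx6-2 in males was -0.015, and with the length trend removed Pdgfra in males was 0.022. Cspg4 in females was -0.035 with limma-voom, -0.0007 with limma-trend, -0.00 with effective length offsets, -0.046 with the GC trend removed, -0.032 with 2 surrogate variables, -0.078 without the 8 libraries and -0.0006 without the 2 shallowest. With 1 library left out Cspg4 in females ran from -0.025 to 0.035, Olig1 from -0.045 to 0.0026, Nkx6-2 from -0.059 to 0.0069 and Pdgfra from -0.0079 to 0.043. The cause of these changes was not tested. Relations that passed by r numbered 15 of the 55 planned, and 12 with log2(TPM + 1). No paired analysis was possible because the groups share no replicate numbers.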

Other observations

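Ratios of 2 members within a library need no scaling factor; these 4 ratios in each sex were chosen after the data had been seen. In these libraries Bcas1 varied with the mature oligodendrocyte score (r = 0.78), and Pdgfra did not pass with it (r = -0.06). The log2 ratio of Bcas1 to Pdgfra averaged 2.35 ± 0.17 in SIR males and 1.98 ± 0.22 in control males (SD, n = 7 and 8), a difference of 0.37 with 7 of 7 SIR males above the control median (exact two-sided permutation test, p = 0.00342, adjusted over 8 tests 0.0104). In females it averaged 2.11 ± 0.17 in SIR animals and 2.46 ± 0.22 in control animals (SD, n = 8 each), a difference of -0.35 with 8 of 8 below the control median (exact permutation p = 0.00389, adjusted 0.0104).

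The ratio of Olig1 to Olig2, neighbouring genes, averaged 1.999 ± 0.147 in SIR males and 1.78 ± 0.099 in control males (SD, n = 7 and 8), a difference of 0.22 with 7 of 7 above the control median (exact permutation p = 0.00249, adjusted 0.0104). In females the difference was 0.12, with 6 of 8 above the control median (exact permutation p = 0.0412, adjusted 0.0824). The ratios of Myrf to Sox10 and of Bcas1 to Gpr17 did not pass in either sex, with exact permutation p adjusted over the 8 tests from 0.164 to 0.252.

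Olig1 also varied with the mural cell score, at r = 0.69 and rho = 0.64 over 31 libraries with group means removed (permutation p adjusted over 105 relations 0.0031), and at 0.65 without the 2 libraries farthest from the median score. Cspg4, which pericytes also make, came close with that score but did not pass. Its r was 0.50 and its rho 0.49 (permutation p adjusted over 105 relations 0.063 and 0.074). With log2(TPM + 1) its r was 0.48 and its rho 0.53 (adjusted permutation p = 0.06 and 0.04), so there the rank relation passed. With the neuron score Cspg4 passed by r, at -0.51 (adjusted permutation p = 0.039), and not by rho, at -0.50 (0.055). With log2(TPM + 1) that r was -0.24 (adjusted permutation p = 0.57). Pdgfra and Nkx6-2 did not pass with the score of other precursor markers (r = 0.42 and 0.41, adjusted permutation p = 0.09 and 0.16). With log2(TPM + 1) both passed (r = 0.69 and 0.62, adjusted permutation p = 0.0029 and 0.015).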
